A study of Mus musculus with 8 samples.

Results

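Gabarap, a gene of the 11B3 interval on mouse chromosome 11, was examined together with its Atg8 paralogues and the Atg4 proteases in leukaemias with and without loss of that interval. The members were taken by gene symbol: the 5 Atg8 genes Gabarap, Gabarapl1, Gabarapl2, Map1lc3a and Map1lc3b, and the 4 protease genes Atg4a, Atg4b, Atg4c and Atg4d. All 9 had a row among the 18860 genes of the deposited tables, and all 9 passed the filter on low values. The comparison asks whether the paralogues were raised where the dose of Gabarap was lowered by the loss of the interval on 1 chromosome.

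Total RNA came from leukaemia cells of the bone marrow of moribund C57BL/6 mice, labelled acute myeloid cells. The 11B3-deleted group (genotype 11B3fl/p53fl, 4 libraries) carried the floxed 11B3 interval, which includes Trp53, on 1 chromosome 11 and a floxed Trp53 allele on the other. The p53-loss-only group (genotype p53fl/fl, 4 libraries) carried the floxed Trp53 allele on both. Every leukaemia of both groups also carried shNf1 and shMll3, short hairpin RNAs against Nf1 and Mll3, and Vav1-Cre, a recombinase driven in blood-forming cells. The sources used here do not give the age of the mice, and the labels speak of lines without saying that each came from its own mouse. The p-values therefore measure the spread between these libraries, which may in part be technical.

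Values are given as deposited: scaled reads, that is reads over the size factor of their library, plus 1. Values of a group's libraries are listed in the order of replicates 1 to 4. The reads recovered from them numbered 30591456 to 35719495 per 11B3-deleted library and 30502718 to 33365364 per p53-loss-only library. Reads of the targeted Trp53 overlapped between the groups and do not check the labels. Of the marker lists, the granulocyte genes summed to between 185473 and 754323 in the 11B3-deleted libraries and to between 302740 and 481737 in the p53-loss-only libraries, so myeloid genes were abundant in all 8. B lineage genes summed to 59143 in 11B3-deleted replicate 3 and to at most 2564 in the other 7 libraries. Erythroid genes summed to 208262 in 11B3-deleted replicate 1 and to as little as 1139 in p53-loss-only replicate 3.

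Atg8 proteins are small ubiquitin-like proteins that are joined to a lipid of the growing autophagosome, the double membrane that encloses cell contents for breakdown in the lysosome. An Atg4 protease first trims the end of the new Atg8 protein to expose a glycine, and an enzyme cascade of Atg7, Atg3 and the Atg12-Atg5-Atg16l1 complex then joins that glycine to the lipid phosphatidylethanolamine. Atg4 also removes Atg8 proteins from membranes. The family has a GABARAP branch and an LC3 branch, which overlap in the cargo receptors and adaptors that they bind. In blood-forming cells autophagy is known for clearing mitochondria and for the upkeep of stem cells.

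The last 60 coding bases of the 5 Atg8 transcripts are shown because this is the stretch the proteases act on, and because it lets a reader see how well reads of the paralogues can be told apart. They were read from the GENCODE transcripts of GRCm38, are all on the plus strand, and leave out the stop codon. Gabarap lies on chromosome 11, Gabarapl1 on chromosome 6, Gabarapl2 and Map1lc3b on chromosome 8 and Map1lc3a on chromosome 2. Capitals mark the codon of the last glycine, the residue that is exposed by Atg4.
Gabarap: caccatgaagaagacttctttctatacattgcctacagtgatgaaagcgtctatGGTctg
Gabarapl1: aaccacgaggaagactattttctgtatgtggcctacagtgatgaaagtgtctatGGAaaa
Gabarapl2: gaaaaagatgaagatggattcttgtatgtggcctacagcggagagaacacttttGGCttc
Map1lc3a: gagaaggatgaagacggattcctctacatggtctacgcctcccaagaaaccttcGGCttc
Map1lc3b: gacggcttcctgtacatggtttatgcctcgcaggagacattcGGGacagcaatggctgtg

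In Gabarap, Gabarapl1, Gabarapl2 and Map1lc3a 1 codon follows the glycine, and in Map1lc3b 5 codons do. Over the whole coding sequence Gabarap was 74.6% identical to Gabarapl1, its nearest paralogue, and the longest run of identical bases that both share is 17 bases long. That run, gcctacagtgatgaaag, lies within the stretch shown. Gabarap was 62.8% identical to Gabarapl2, 51.3% to Map1lc3a and 50.5% to Map1lc3b. No window of 50 bases of the Gabarap transcript occurred in a transcript of any other annotated gene, so a read of that length from Gabarap matches no annotated paralogue exactly. Map1lc3a likewise shared 0 windows. Gabarapl2 shared 17% of its windows and Map1lc3b 13.8% with other genes, among them the predicted genes Gm3724 and Gm6055. Gabarapl1 overlaps 570 bases of exon of 1700101I11Rik on the other strand, and Atg4d overlaps 1405 bases of Kri1 on the other strand. The sources used here do not give whether strand was used in counting, and reads in these overlaps cannot be told apart. 1700101I11Rik itself was at no more than 23.6 in any library. The value of Atg4a is the least certain, since 63.6% of its windows occur in its retrogene Atg4a-ps, which was itself at 11.7 to 23.6 in the 11B3-deleted libraries and 12.7 to 23.9 in the p53-loss-only libraries.

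Gabarap was lower in the 11B3-deleted leukaemias. It stood at 3176, 3860.0, 3434.2 and 3467.7 across the 11B3-deleted replicates, and at 8421.7, 6725.7, 9055 and 7026.1 across the p53-loss-only replicates. The highest 11B3-deleted library lay well below the lowest p53-loss-only library, and the 11B3-deleted libraries were close to each other, with a coefficient of variation of 8.1% against 14.3% in the p53-loss-only libraries. The means were 3484 ± 282.3 in the 11B3-deleted and 7807 ± 1113 in the p53-loss-only libraries (SD, n = 4 each). On the log2 scale the difference was -1.16 (SE 0.15, 95% interval -1.49 to -0.82), a level of 44.9% relative to the p53-loss-only group. The interval includes -1, the log2 value of 1 copy in place of 2. With limma, adjusted by Benjamini-Hochberg over 14679 genes, the difference did not pass the threshold of 0.05 (limma adjusted p = 0.133, unadjusted p = 2.71e-05, the third smallest of all genes). DESeq2 on the recovered reads called it (log2 difference -1.16, DESeq2 adjusted p = 4.05e-09), edgeR did not (edgeR adjusted p = 0.158), and a two-sided exact permutation test of this gene alone over 70 arrangements gave p = 0.0286, the smallest it can give. In the background, limma called 0.0136% of all genes lower, edgeR 0.00681% and DESeq2 0.375%, and the groups did not overlap, with the 11B3-deleted group lower, in 1.23%. In bulk RNA, fewer cells of a type and less RNA per cell cannot be told apart.

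**Figure D1:**
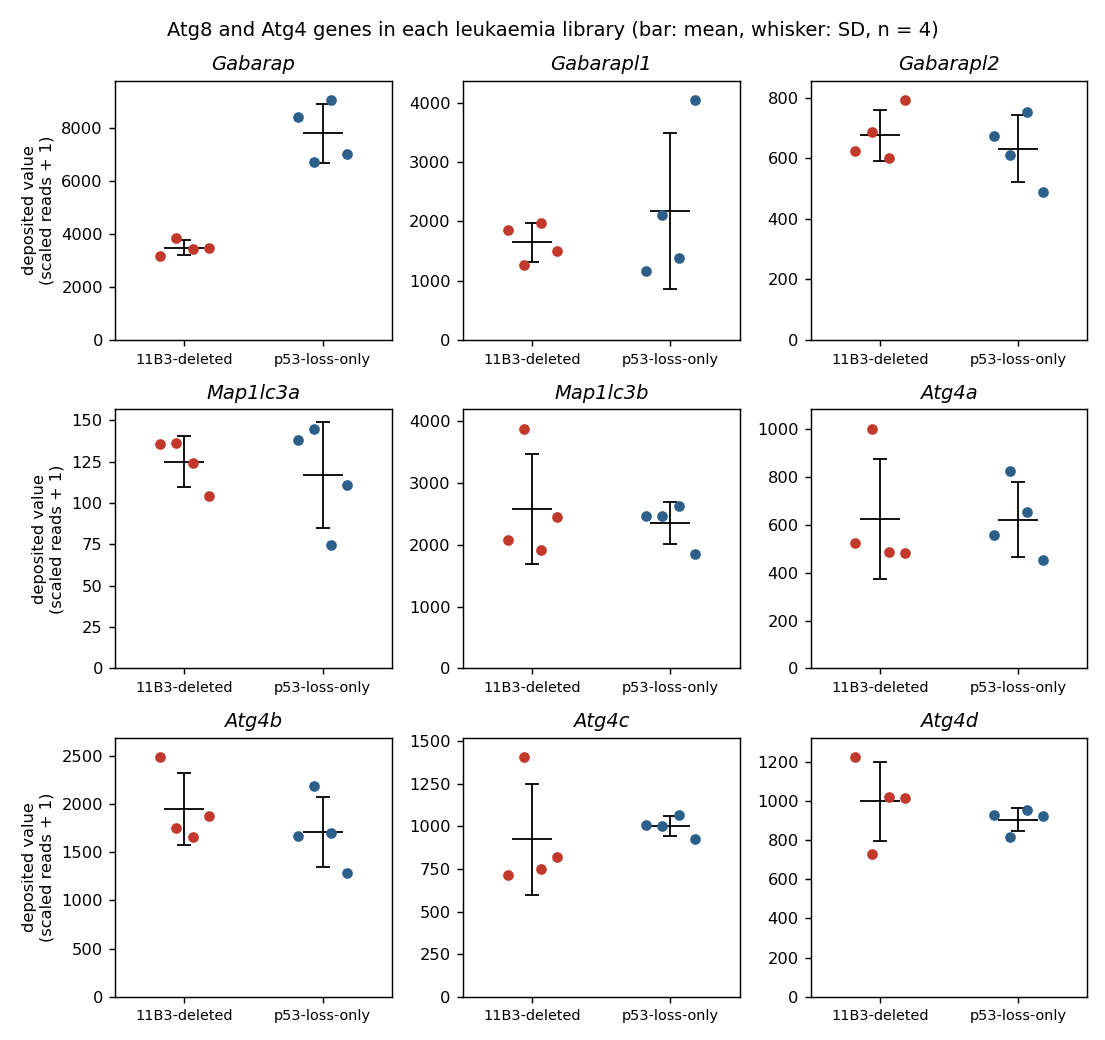
Deposited value (scaled reads plus 1, linear axis from 0) of the 9 members in each library, with the 11B3-deleted libraries left of the p53-loss-only libraries. Points are libraries in replicate order, the bar is the mean and the whisker the SD (n = 4). The groups separate for Gabarap, between 3860.0 and 6725.7, and overlap for the other 8 members.

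None of the 4 paralogues was called higher or lower by limma, edgeR or DESeq2, and in each of them the groups overlapped. In the background, limma and edgeR called 0% of all genes higher and DESeq2 0.0599%, and 0.913% were higher without overlap. The upper bound of the 95% interval was 1.5-fold for Gabarapl1, 1.48-fold for Gabarapl2, 1.79-fold for Map1lc3a and 1.55-fold for Map1lc3b. Each interval thus includes both no difference and a rise up to its bound, which is what 4 libraries per group can resolve. At an unadjusted limma p under 0.05, which 1.18% of all genes reached as higher and 2.38% as lower, Gabarap was lower and no other member was past the threshold.

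Gabarapl1, the closest relative of Gabarap and a gene induced by FoxO factors, was at 1851.1, 1259, 1975.4 and 1496.5 across the 11B3-deleted replicates. In p53-loss-only replicates 1 to 4 it was at 1163.3, 2113.8, 1382.6 and 4047.6. It varied most of the 5 Atg8 genes in the p53-loss-only group, where replicate 4 stood above the other 7 libraries. Its log2 difference had an interval of -1.09 to 0.59 around -0.25 (95% interval, SE 0.37; limma adjusted p = 0.996). Without p53-loss-only replicate 4 the difference had the other sign, 0.11 (limma adjusted p = 0.941), so its direction rests on that library.

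Gabarapl2, also known as GATE-16 and involved in transport within the Golgi as well as in autophagy, was at 623.9, 686.5, 601.9 and 792.7 across the 11B3-deleted replicates, against 674.9, 610.2, 752.1 and 489.8 across the p53-loss-only replicates. The groups overlapped, with the highest value in 11B3-deleted replicate 4 and the lowest in p53-loss-only replicate 4. Gabarapl2 differed by 0.11 on the log2 scale (SE 0.2, 95% interval -0.35 to 0.57; limma adjusted p = 0.996), the narrowest interval among the 4 paralogues, and by -0.00904 without p53-loss-only replicate 4.

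Of the LC3 branch, Map1lc3b, whose lipid-bound protein is the usual marker of autophagosomes, was at 2072.7, 3880.5, 1918.2 and 2454.2 across the 11B3-deleted replicates, against 2470.3, 2466.1, 2623.9 and 1853.9 across the p53-loss-only replicates. Its highest value was in 11B3-deleted replicate 2, and the other 3 libraries of that group lay within the p53-loss-only range. Map1lc3b differed by 0.09 on the log2 scale (SE 0.24, 95% interval -0.45 to 0.63; limma adjusted p = 0.996) and by -0.13 without that replicate. Map1lc3a, the other LC3 gene of the mouse measured here, was the lowest of the 5, at 135.7, 136.6, 124.1 and 104 across the 11B3-deleted replicates and at 137.9, 145, 74.5 and 110.7 across the p53-loss-only replicates. It overlapped throughout (log2 difference 0.13 with SE 0.31 and a 95% interval from -0.57 to 0.84; limma adjusted p = 0.996).

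**Figure D2:**
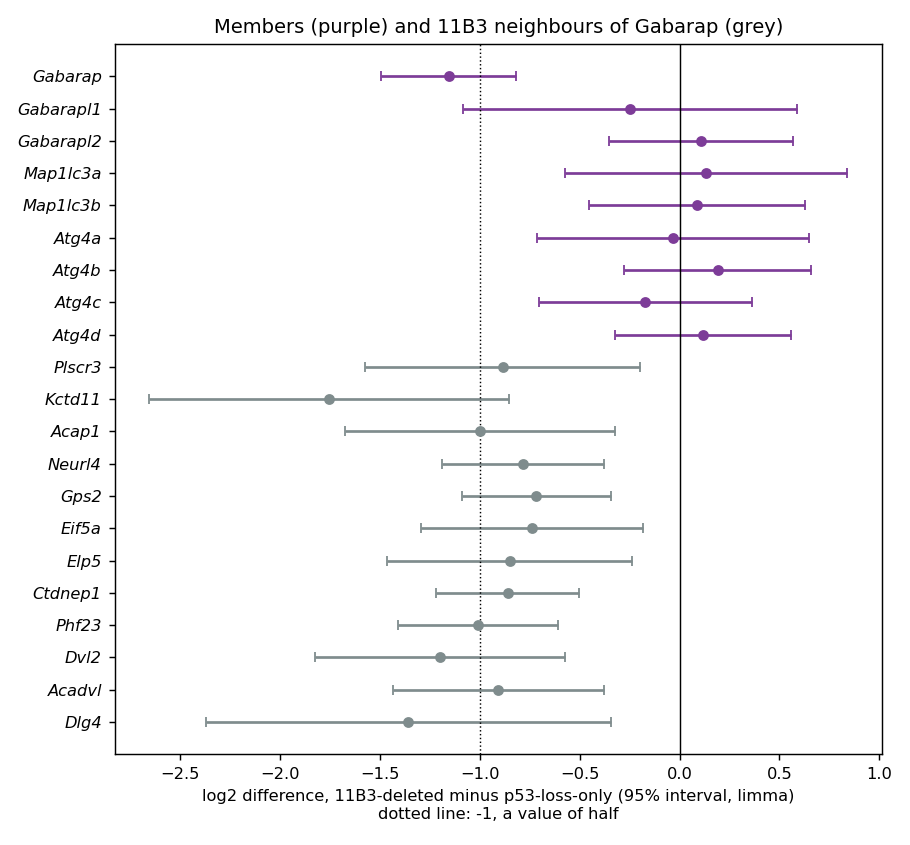
Log2 difference, 11B3-deleted minus p53-loss-only, with its 95% interval from limma (n = 4 libraries each) for the 9 members (purple) and for 12 tested genes beside Gabarap in the 11B3 interval (grey, in gene order). The interval of Gabarap lies below 0 and includes -1, as do those of its 12 neighbours, and the intervals of the other 8 members include 0.

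Whether Gabarap and a paralogue differed in their change was tested with the ratio of their values within each library, which does not depend on how libraries are scaled. Gabarap to Gabarapl2 was 5.09, 5.62, 5.71 and 4.37 across the 11B3-deleted replicates, against 12.48, 11.02, 12.04 and 14.35 across the p53-loss-only replicates. The groups did not overlap, and the ratio was lower in the 11B3-deleted group (log2 difference -1.26, exact permutation p = 0.0286, adjusted p = 0.0381 over the 4 ratios compared). Gabarap to Map1lc3b was 1.53, 0.99, 1.79 and 1.41 across the 11B3-deleted replicates, against 3.41, 2.73, 3.45 and 3.79 across the p53-loss-only replicates. In 11B3-deleted replicate 2 the values of the 2 genes were thus about equal. That ratio differed by -1.25 (exact permutation p = 0.0286, adjusted p = 0.0381), and the ratio to Map1lc3a by -1.29 (exact permutation p = 0.0286, adjusted p = 0.0381), both without overlap and both lower in 4 of 4 11B3-deleted libraries. The p of 0.0286 is the smallest that 70 arrangements allow. All 4 ratios share Gabarap, which was itself lower without overlap, so these tests largely repeat its own difference and are not independent of each other. The share of all genes whose ratio to Gabarap also separates the groups was not computed.

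The ratio of Gabarap to Gabarapl1 did not pass. It was 1.72, 3.07, 1.74 and 2.32 across the 11B3-deleted replicates and 7.24, 3.18, 6.55 and 1.74 across the p53-loss-only replicates, and p53-loss-only replicate 4, the library with the highest Gabarapl1, lay among the 11B3-deleted values. The difference was -0.91 on the log2 scale (exact permutation p = 0.143, adjusted p = 0.143). It was -1.31 without that library, -0.62 without p53-loss-only replicate 1 and -0.67 without p53-loss-only replicate 3.

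**Figure D3:**
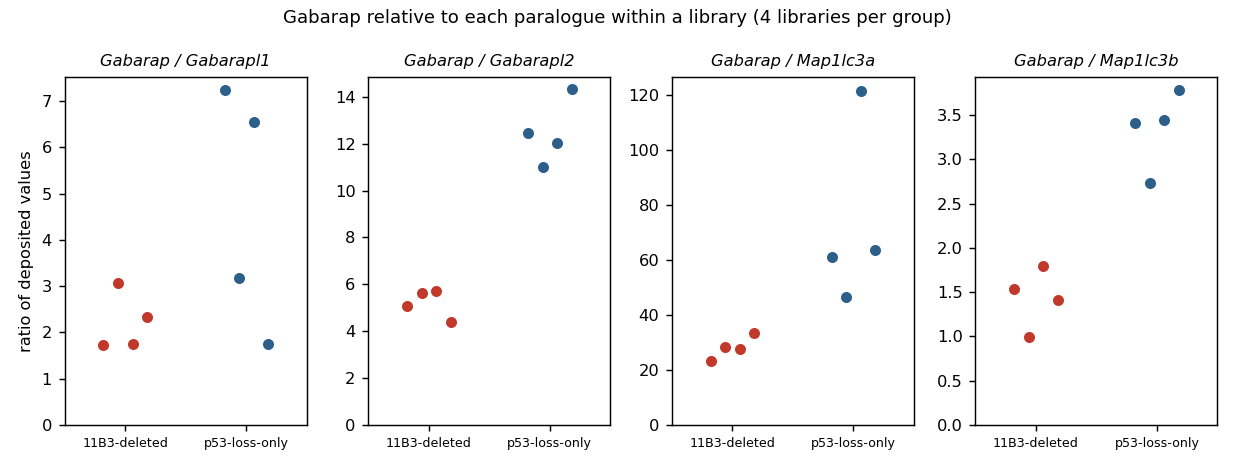
Ratio of the deposited value of Gabarap to that of each paralogue within a library (linear axes from 0), 11B3-deleted left and p53-loss-only right, 4 libraries each. The groups are apart for Gabarapl2, Map1lc3a and Map1lc3b and overlap for Gabarapl1, where p53-loss-only replicate 4 is at 1.74.

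Summed over the 5 Atg8 genes, the 11B3-deleted libraries held fewer Atg8 reads. The sum of scaled reads (the deposited value without the added 1) was 7854.4, 9817.5, 8048.8 and 8310.0 across the 11B3-deleted replicates, and 12863.1, 12055.7, 13883 and 13523.1 across the p53-loss-only replicates. The groups did not overlap, and the 11B3-deleted mean was 65% of the p53-loss-only mean, given without a test because the sum runs over chosen genes. In scaled reads of Gabarap the means differed by -4323, while the summed reads of the 4 paralogues averaged 5024 ± 630.2 in the 11B3-deleted and 5275 ± 892.7 in the p53-loss-only libraries (SD, n = 4 each), a difference of -251. The paralogue sums overlapped, at 4616 to 5958 in the 11B3-deleted libraries against 4442 to 6498 in the p53-loss-only libraries. Gabarap made up 41% ± 1.47 of the Atg8 reads in the 11B3-deleted libraries and 59.6% ± 6.81 in the p53-loss-only libraries (SD, n = 4 each), with no overlap. In the p53-loss-only group the share was 65.5% and 65.2% in replicates 1 and 3, and 55.8% and 51.9% in replicates 2 and 4, whereas it lay between 39.3% and 42.7% in all 4 11B3-deleted libraries.

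**Figure D4:**
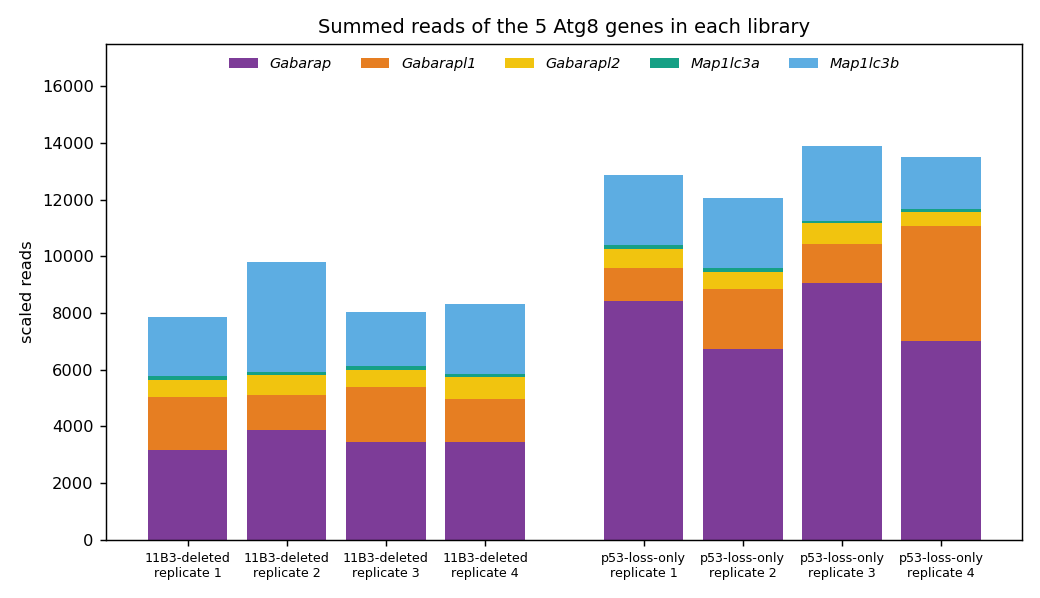
Scaled reads of the 5 Atg8 genes stacked for each library, 11B3-deleted on the left. The totals are 7854 to 9818 in the 11B3-deleted and 12056 to 13883 in the p53-loss-only libraries, and the segment that differs in every library between the groups is that of Gabarap.

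Since a longer transcript gives more reads, levels of different genes were compared per kilobase of the principal transcript. On that scale the level of Gabarap in scaled reads per kilobase was 2578 ± 208.9 in the 11B3-deleted and 5778 ± 823.6 in the p53-loss-only libraries (SD, n = 4 each), the highest of the 5 in each of the 8 libraries, also where all exons of the gene gave the length. Next came Gabarapl1, at a level of 903.6 ± 180.2 per kilobase in the 11B3-deleted and 1196 ± 720.7 in the p53-loss-only libraries, and Map1lc3b, at 1019 ± 353.4 in the 11B3-deleted and 929.1 ± 134.7 in the p53-loss-only libraries (SD, n = 4 each). These 2 exchanged ranks from library to library and did not differ beyond their spread. Gabarapl2 followed at a level of 402.7 ± 50.98 per kilobase in the 11B3-deleted and 376.1 ± 66.19 in the p53-loss-only libraries. Map1lc3a was last in every library, at 111.6 ± 13.67 per kilobase in the 11B3-deleted and 104.3 ± 28.78 in the p53-loss-only libraries. With all exons as the length, which is 7517 bases for Map1lc3b in place of 2532, Map1lc3b ranked behind Gabarapl1 in all 8 libraries and behind Gabarapl2 in 11B3-deleted replicates 3 and 4. Per kilobase of principal transcript, the 4 paralogues together were at 2437 ± 212.2 in the 11B3-deleted and 2605 ± 533.4 in the p53-loss-only libraries, and the 11B3-deleted mean of the Atg8 sum was 59.8% of the p53-loss-only mean.

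The 4 Atg4 proteases, which trim and recycle Atg8 proteins, did not pass any test between the groups. Atg4b, which in mammals acts on all Atg8 proteins and is the main protease of the 4, was at 2487.7, 1757.2, 1656.5 and 1878.1 across the 11B3-deleted replicates, against 1671.2, 2184.4, 1700.6 and 1286.3 across the p53-loss-only replicates. The groups overlapped, with a log2 difference of 0.19 and an SE of 0.21 (95% interval -0.28 to 0.66, limma adjusted p = 0.996). Atg4d was at 1222.4, 729.5, 1019.7 and 1013.7 across the 11B3-deleted replicates against 927.4, 816.6, 950.6 and 921.1 across the p53-loss-only replicates, with both the highest and the lowest value in the 11B3-deleted group. Atg4d differed by 0.12 on the log2 scale with an SE of 0.2 (95% interval -0.32 to 0.56, limma adjusted p = 0.996).

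Atg4a, which in human cells prefers the GABARAP branch, was at 525.3, 1002.9, 486.6 and 484.7 across the 11B3-deleted replicates, against 558.4, 825.8, 652.3 and 454.6 across the p53-loss-only replicates. Atg4c was at 714.7, 1406.4, 752.2 and 820.2 across the 11B3-deleted replicates against 1006, 1002.8, 1069 and 924.3 across the p53-loss-only replicates. In both genes 11B3-deleted replicate 2 stood above the other 7 libraries, as it did for Map1lc3b, while it was the lowest library for Atg4d. The log2 differences were -0.03 (SE 0.3, 95% interval -0.72 to 0.65) for Atg4a and -0.17 (SE 0.24, 95% interval -0.7 to 0.36) for Atg4c. Without 11B3-deleted replicate 2, Atg4a differed by -0.29 and Atg4c by -0.39, neither past the threshold (limma adjusted p of at least 0.613), and without 11B3-deleted replicate 1 Atg4c differed by -0.0671.

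Gabarap was set against listed genes that lie beside it in the interval. The list did not hold every tested gene of that stretch. Of 19 listed neighbours 16 had a row and 12 passed the filter, and all 12 were lower in the 11B3-deleted group at an unadjusted limma p under 0.05, against 2.38% of all genes; none passed limma over all genes. In 9 of the 12 the groups did not overlap, with the 11B3-deleted group lower, against 1.23% of all genes. On either side of Gabarap lie Ctdnep1, a phosphatase of the nuclear envelope, and Phf23, a PHD finger protein. Ctdnep1 was at 1665.6, 1404.3, 2087.8 and 1608.3 across the 11B3-deleted replicates, against 3034.5, 2805.5, 3083.3 and 3255.3 across the p53-loss-only replicates (log2 difference -0.86, SE 0.16, limma adjusted p = 0.425, DESeq2 adjusted p = 0.000756). Phf23 was at 1375.6, 1082.5, 1464.6 and 1319.9 across the 11B3-deleted replicates against 3033.5, 2269.8, 3042.7 and 2260.7 across the p53-loss-only replicates (log2 difference -1.01, SE 0.18, limma adjusted p = 0.419, DESeq2 adjusted p = 0.00015). Both were called by DESeq2 and neither by limma, as was the case for Gabarap. These 2 were also the neighbours with the smallest p. Next to them, Elp5, a subunit of the Elongator complex, had a log2 difference of -0.85 (SE 0.27) and Dvl2, a transducer of Wnt signals, of -1.2 (SE 0.28).

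The median log2 difference of the 12 neighbours was -0.9, with a range from -1.76 for Kctd11 to -0.72 for Gps2, and 3 of the 12 lay below Gabarap. Relative to the neighbours' median log2 value in the same library, Gabarap stood at 1.63, 2.13, 1.24 and 1.71 across the 11B3-deleted replicates and at 2.1, 1.9, 2.29 and 1.88 across the p53-loss-only replicates. This gave a mean difference of -0.37, not past the threshold (exact permutation p = 0.143, lower in 3 of 4 11B3-deleted libraries than in any p53-loss-only library). It was -0.22 without 11B3-deleted replicate 3 and -0.52 without 11B3-deleted replicate 2. With each gene set first against its mean over the 8 libraries, an alternative chosen after seeing the data, it was -0.24 (exact permutation p = 0.371). Among the 72 other tested genes from Sco1 to Alox12 in gene order, 22 had a lower log2 difference than Gabarap and 0 a smaller p.

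Among 11064 genes with a mean value of at least 100, those whose log2 values over the 8 libraries were most like those of Gabarap were Ndel1 (Pearson r = 0.984), Stx8 (0.97), 2310047M10Rik (0.965), Trim46 (0.964) and Trappc1 (0.955). All but Trim46, on chromosome 3, lie between Sco1 and Alox12. The 8 points share the 2 genotypes, so these values describe the group difference as much as any likeness within groups. Stx8, a syntaxin of late endosomes, was at 440.3, 436.8, 467.2 and 453.6 across the 11B3-deleted replicates, against 837, 866.1, 939.6 and 715.5 across the p53-loss-only replicates. Over the same 8 libraries the r of Gabarap with its paralogues was 0.05 for Gabarapl1, -0.1 for Gabarapl2, -0.33 for Map1lc3a and 0.01 for Map1lc3b, and with the proteases it ran from -0.42 for Atg4b to 0.41 for Atg4c.

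The rest of the autophagy pathway was described by 7 lists with 65 genes, all with a row and all tested. Of the 65, 0 passed limma, edgeR or DESeq2 over all genes; 1 was lower and 0 were higher at an unadjusted limma p under 0.05, against 2.38% lower and 1.18% higher among all genes. In none of the 65 were the groups free of overlap, beside 1.23% of all genes lower and 0.913% higher without overlap. The median log2 difference of the 65 was -0.06, with 45 lower and 20 higher. Over all genes tested the median was 0.01, with 7106 lower and 7573 higher. The 1 gene was Sqstm1, which codes for p62, the receptor that ties ubiquitin-marked cargo to Atg8 proteins. It was at 4024.4, 5468.8, 4040.0 and 3390.5 across the 11B3-deleted replicates, against 4955.1, 5917.4, 5960.6 and 5637.5 across the p53-loss-only replicates, so that 11B3-deleted replicate 2 lay within the p53-loss-only range and the other 3 below it (log2 difference -0.43, SE 0.17, limma adjusted p = 0.996). The other 13 genes of the cargo receptor list included Calcoco1 (log2 difference -0.41, SE 0.25), and the list's median was -0.08.

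Of the 8 genes listed for Atg8 conjugation, the joining of Atg8 proteins to lipid, with related genes, 6 were lower and 2 higher. None was past the threshold, and the list's median log2 difference of -0.24 was the lowest of the 7 lists. Atg7, the enzyme that activates Atg8 proteins, was at 1023.2, 1199.8, 922.8 and 1368.7 across the 11B3-deleted replicates against 1483.7, 1166.1, 1176.5 and 2099.9 across the p53-loss-only replicates (log2 difference -0.37, SE 0.23), and Atg16l2, a relative of the lipidation scaffold Atg16l1, differed by -0.62 (SE 0.42). The ULK1 complex, the kinase that starts autophagy, had a median of -0.03 over 5 genes, led by Atg101 (-0.21, SE 0.2) and Ulk2 (0.21, SE 0.23). The class III PI3K complex, which makes the lipid signal on the forming membrane, had a median of -0.02 over 8 genes; its core subunit Becn1 was at 4659, 5801.3, 5197.3 and 4892.2 across the 11B3-deleted replicates against 5063.9, 5175.2, 4841 and 4061.5 across the p53-loss-only replicates (log2 difference 0.1, SE 0.14), and Atg14, the subunit that directs it to autophagy, differed by -0.39 (SE 0.3).

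Genes of the Atg9, Atg2 and Wipi group, which supply and bind membrane, were split between 5 lower and 5 higher (median log2 difference 0.02), with Atg2b at 0.35 (SE 0.22) and Atg9b at -0.78 (SE 0.63). Genes of fusion with lysosomes had a median of -0.07 over 10 genes; Plekhm1, an adaptor that binds Atg8 proteins, differed by -0.26 (SE 0.18) and the GTPase Rab7 by -0.29 (SE 0.21). Of the regulators, Mitf, a transcription factor of the family of Tfeb and Tfe3, differed by -0.79 (SE 0.38, limma adjusted p = 0.996) and Zkscan3, described as a repressor of autophagy genes, by 0.48 (SE 0.29). The median of the 10 regulators was -0.04.

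**Figure D5:**
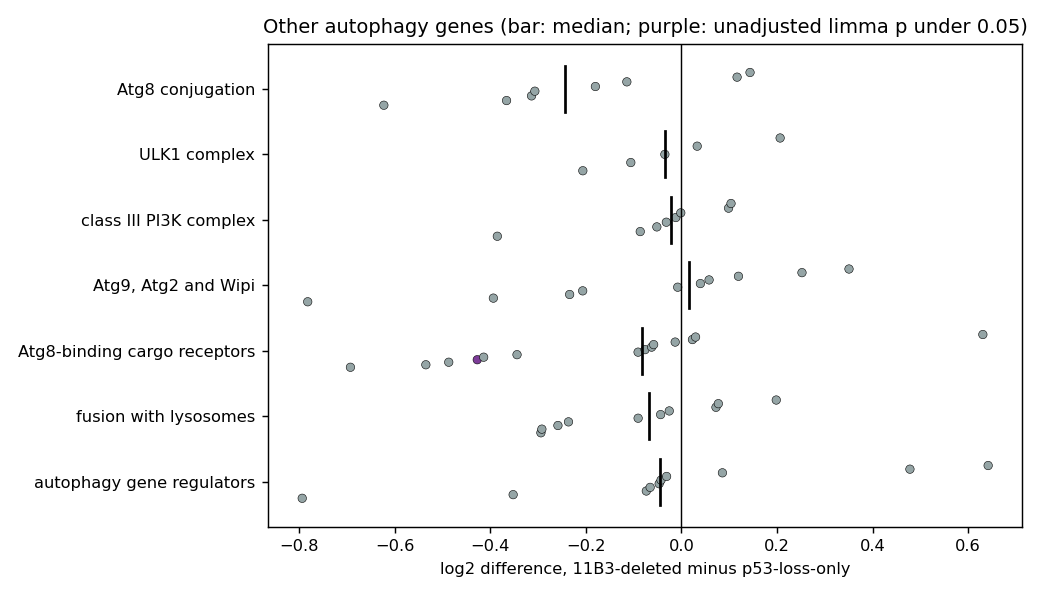
Log2 difference, 11B3-deleted minus p53-loss-only, of 65 other autophagy genes in 7 lists; each point is a gene, the bar is the list's median, and purple marks an unadjusted limma p under 0.05. The medians lie between -0.24 and 0.02, and the purple point is Sqstm1 at -0.43.

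The E-box CACGTG, the core of the motif bound by Tfeb, was searched in RefSeq promoter windows of GRCm38.p6; it reads the same on either strand. Windows were to hand for 8 of the 9 members, 10 windows in all, and 0 of them held it, beside 7.15% of 32851 windows in all. No match says only that these letters are not in these windows.

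Markers of other cell types were read beside these results. The monocyte and macrophage list includes Cd68, itself a gene of the 11B3 interval, and its counts and sums were not repeated without Cd68. At an unadjusted limma p under 0.05, 4 of its 15 genes were lower and 1 higher in the 11B3-deleted group. Among all genes 2.38% were lower and 1.18% higher. The higher count of the list is 1 gene, too few to set against that share. The sum of the 15 genes was 190326, 253712, 199934 and 419913 over the 11B3-deleted replicates and 433128, 263764, 482974 and 346651 over the p53-loss-only replicates. The sums of 11B3-deleted replicates 1, 2 and 3 lay below every p53-loss-only sum, and that of replicate 4 lay within the p53-loss-only range. The sum, in which abundant genes weigh most, thus moved in the same direction as Gabarap in 3 of 4 11B3-deleted libraries. The part of monocyte cells in the lower level of Gabarap was not tested. Erythroid sums were 9606 to 208262 in the 11B3-deleted libraries against 1139 to 46986 in the p53-loss-only libraries, and B lineage sums 510 to 59143 in the 11B3-deleted against 492 to 2564 in the p53-loss-only libraries. T and NK sums were 557 to 2392 in the 11B3-deleted libraries against 1095 to 1634 in the p53-loss-only libraries. Stroma and endothelium sums were 3238 to 17039 in the 11B3-deleted libraries against 5514 to 9151 in the p53-loss-only libraries. The highest was in 11B3-deleted replicate 2, where Map1lc3b, Atg4a and Atg4c were also highest. The next highest, 13991, was in 11B3-deleted replicate 4, where Map1lc3b was at 2454.2, Atg4a at 484.7 and Atg4c at 820.2. Of these lists, granulocyte genes included, every gene had a read in every library except the B lineage gene Rag1, which was at 0 in 2 libraries. The part of cell makeup in the values of the members was not tested.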

How the data were processed

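Per the submitters' processing notes, the authors used STAR, HTSeq and DESeq, and the build was mm9; the notes give neither the part each tool had nor its version. A deposited table holds 1 signal value per gene: a read count divided by a library's size factor, with 1 added, as the values show. With the 1 taken off, 100% of values were whole reads within a tolerance of 0.02. Because the values are not counts, limma with a mean-variance trend on log2 of the deposited value was the test, two-sided and with no term but group, over 14679 genes with at least 10 in at least 4 libraries; the added constant is 1, so folds of low genes are understated. Even the closest libraries differed beyond sampling noise (chi-square over degrees of freedom 93.2). edgeR's quasi-likelihood test and DESeq2 on the recovered reads were alternatives; edgeR called 1 gene. The limma fit was tested on simulated data, and edgeR and DESeq2 were not.

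The members and lists were chosen with earlier results of these data known. The text names all 9 members, the 2 tested neighbours on each side and the 2 with the smallest p, up to 2 genes of each autophagy list by p, and the 5 genes most like Gabarap; Kctd11 and Gps2 (the ends of a range) were named after their values were seen. Lists were matched by the files' symbols, older symbols included. GENCODE M21 (GRCm38), another build, gave gene order, lengths and sequences, and no coordinates are printed. No protein sequences were to hand. Intervals come from the limma fit. The tools were Python 3.11.15 with scipy 1.17.1 and Biopython 1.88, and R 4.3.3 with DESeq2 1.42.0, edgeR 4.0.16 and limma 3.58.1.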

Additional observations from a re-analysis of the deposited data

Results flagged for a closer look

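Among 28 groups of 4 libraries examined (9 members, 4 ratios and the Atg8 sum in each genotype), 2 held a library far from the other 3, where the gap to the nearest library, divided by the group's range, passed Dixon's 95% critical value; chance gives about 1 in 20 groups. Both were 11B3-deleted replicate 2, for Atg4a at 1002.9 (gap ratio 0.922) and for Atg4c at 1406.4 (gap ratio 0.847).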

How the results depend on the processing

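Gabarap was lower under every alternative run, with a log2 difference between -1.22 and -1.08, which was also the range when each library was left out. It was called with DESeq2 (log2 difference -1.16, DESeq2 adjusted p = 4.05e-09) and with no other alternative (limma or edgeR adjusted p of at least 0.136). No paralogue or protease was called under any. Signs of such uncalled differences changed in 10 cases: without p53-loss-only replicate 4 for Gabarapl1 (0.108), Gabarapl2 (-0.00904) and Map1lc3b (-0.0222), without p53-loss-only replicate 3 for Map1lc3a (-0.0677), without 11B3-deleted replicate 2 for Map1lc3b (-0.127), and for Atg4a with DESeq2 (0.00425) and without 11B3-deleted replicates 1 (0.0243), 3 (0.0611) and 4 (0.063) or p53-loss-only replicate 2 (0.113). With each library left out the ranges were -0.492 to 0.108 for Gabarapl1, -0.00904 to 0.197 for Gabarapl2, -0.0677 to 0.253 for Map1lc3a, -0.127 to 0.212 for Map1lc3b, -0.287 to 0.113 for Atg4a, 0.0633 to 0.318 for Atg4b, -0.393 to -0.0671 for Atg4c and 0.0125 to 0.261 for Atg4d. The cause was not tested. Over all genes, 2 were called lower and 0 higher with limma; 50 and 8 were with DESeq2, 1 lower with edgeR, with an added constant of 5 or with a filter of at least 50, 0 to 1 lower without each library, and 0 with the replicate block. Medians of 3 lists moved beyond their spread between libraries without a library: Atg8 conjugation ranged from -0.33 to -0.113, Atg9, Atg2 and Wipi from -0.0814 to 0.079, and fusion with lysosomes from -0.206 to -0.0046. The summed Atg8 level was 57.4% per kilobase of all exons, a scale added after seeing the data, and 61.7% to 66.7% without each library. Ratios kept their sign, at -1.31 to -0.624 for Gabarapl1, -1.32 to -1.18 for Gabarapl2, -1.48 to -1.01 for Map1lc3a and -1.36 to -1.08 for Map1lc3b without each library, as did Gabarap relative to its neighbours, at -0.517 to -0.22. Same-numbered libraries did not deviate together (correlations -0.03, -0.217, -0.414 and -0.243), so the numbers do not pair them; under the replicate block Gabarap had a log2 difference of -1.16 (limma adjusted p = 1), and the ratio to Gabarapl1 gave p = 0.375 and the other 3 ratios p = 0.125, the smallest possible, in a paired exact permutation test over 16 arrangements.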
